A study of Arabidopsis thaliana with 4 samples.

Results

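The genes described are 6 nuclear genes for proteins of photosystem II in Arabidopsis thaliana: the antenna genes LHCB4.1, LHCB4.2, LHCB4.3 and LHB1B2 (also called LHCB1.5, AT2G34420), and PSBW and PSBY, which encode small subunits. They were chosen by name among genes with a log ratio on all 4 arrays of the study, and are 6 of 10480 genes that could be named there. LHCB4.1 had 2 probes and each other gene had 1, so 7 probes were read. Endosperm, the nourishing tissue beside the embryo, was cut with a laser from sections of siliques at 4 days after pollination, in 3 replicate samples. Each was hybridised on a 2-colour array against the same reference RNA, described in the study's design as tissue scraped from a slide after the endosperm had been removed. The sample labels call this RNA whole silique instead, in which case the reference would hold endosperm too, and the sources used here do not settle which it was. Endosperm carried Cy3 in replicate 1, Cy5 in replicate 3, and each dye once in replicate 2, on a pair of dye-swapped arrays. No genotype, accession or treatment is given for either side in the sources used here. Nor do they say whether different plants gave the replicates, and the spread behind each p-value may therefore be technical.

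Photosystem II is the complex in the thylakoid membrane of the chloroplast that uses light to draw electrons from water. Around its core sits an antenna of chlorophyll-binding proteins, which collects light energy and passes it inward. LHB1B2 encodes a protein of the trimers that form the bulk of this antenna, and the LHCB4 genes encode CP29, a monomeric antenna protein that links trimers to the core. Fruit walls are green and carry out photosynthesis, and the plastids of young Arabidopsis endosperm also hold some chlorophyll.

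The 4 arrays held values for 21829 to 23171 probes, and 19449 probes with a value on every array were compared. Between arrays Pearson's r over these probes, which are not independent replicates, was 0.87 to 0.92. A ratio is written as endosperm over silique reference on a log2 scale. Neither the numerator nor the log base is stated, and the direction was taken from endosperm marker genes, whose median was above 0 on each array (1.72, 2.09, 2.28 and 1.80). If the reference were the numerator, higher and lower would change places in every sentence. Of 17 listed endosperm markers 9 were measured, meaning that a probe named for the gene had a value on every array. Probes without a name may cover others. Of the 9 markers 8 were higher, beside 32.0% of all probes, though the same markers set the direction. Among the 8 were the type I MADS-box genes PHE2 (2.97 ± 0.05), AGL35 (2.94 ± 0.05), PHE1 (2.33 ± 0.45) and AGL40 (1.97 ± 0.25). IKU1, which acts in endosperm growth and is named here because it was the 1 marker not called, was at 0.10 ± 0.25. ALC, a regulator of fruit opening and the 1 measured marker of the silique wall, was at -2.40 ± 0.22. Of 3 measured seed coat markers 1 was lower, beside 25.5% of all probes. It was the integument regulator INO (-0.73 ± 0.28), which was not called with Cy5 endosperm alone (-0.36, limma adjusted p = 0.106). The others, named to complete the list, were BAN at -0.394 ± 0.285 and DFR at 0.145 ± 0.272, and neither was called. None of 9 embryo markers had a named probe. How far other tissues in either RNA moved with the photosystem II ratios was not tested.

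Transcripts of LHCB4.2 were 1.56-fold lower in endosperm than in the reference. The call held in 11 of 12 alternative analyses of the same arrays. LHB1B2 was 1.61-fold lower, but its call was lost in 6 of the 12, and its log2 ratio fell in size from -0.69 to -0.37 without replicate 3 and to -0.10 with Cy3 endosperm alone. The other genes did not differ detectably. In numbers, 2 of 7 probes were called lower and 0 were called higher (limma, Benjamini-Hochberg adjusted p under 0.05, n = 3 replicates). Among all 19449 probes 25.5% were called lower and 32.0% higher. The share called lower among the members (28.6%) was close to that background. The median log2 ratio was -0.14 over the 7 probes and 0.11 over all probes. With RNA from bulk tissue, fewer green cells and less transcript per cell cannot be told apart, on either side of the ratio.

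**Figure D1:**
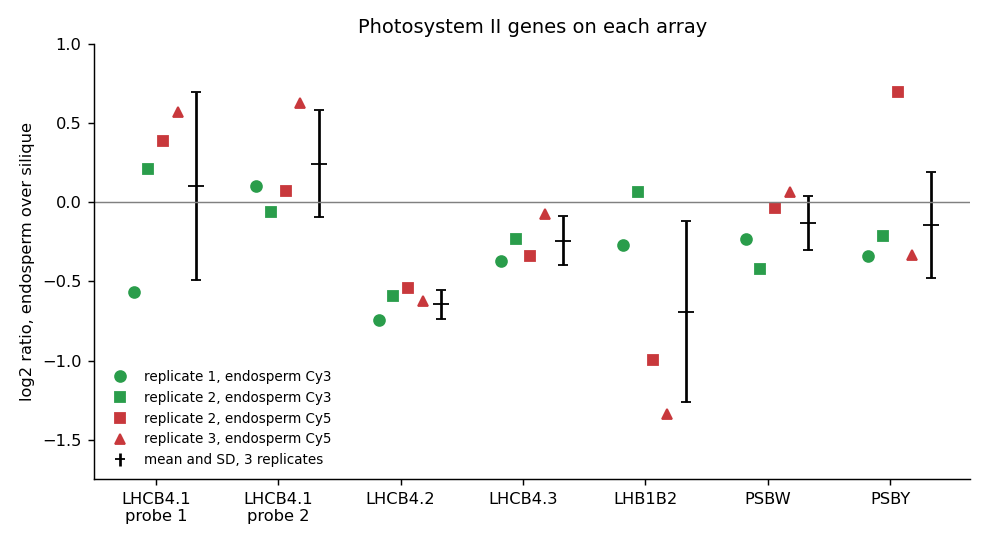
Log2 ratio of endosperm over silique reference (vertical axis) for each of the 7 probes (horizontal axis) on each of the 4 arrays. Symbols mark the replicate and colours the dye of endosperm, and black bars show the mean and SD of the 3 replicates. LHCB4.2 lies between -0.74 and -0.54 on every array, whereas the points of LHB1B2 separate by dye. Those of PSBW and the first LHCB4.1 probe also separate by dye, at smaller gaps. With so few arrays per dye such a separation often arises by chance, and its share over all probes was not counted.

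LHCB4.2 gave the steadiest ratio of the antenna genes. Its log2 ratio was -0.74 in replicate 1, -0.59 (Cy3) and -0.54 (Cy5) in replicate 2, and -0.62 in replicate 3. All 4 arrays were below 0, and the span across them was small. The mean was -0.64 ± 0.09 (SD, n = 3), or 1.56-fold lower, with a 95% confidence interval from 1.27-fold to 1.92-fold (limma adjusted p = 0.00548). Of all probes, 12.5% had a smaller SD between replicates and 20.1% had a lower mean ratio. The call held in 11 of 12 alternative analyses and was lost against a fold change of 1.5 (adjusted p = 0.749). The alternatives reuse the same 4 arrays and are not independent. For a gene with a single probe, a looser filter on missing values and averaging probes by gene leave the ratio itself unchanged.

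LHCB4.1 encodes another copy of CP29 and was read by 2 probes, neither of which was called. The first probe was at -0.56 in replicate 1, 0.21 and 0.38 on the Cy3 and Cy5 arrays of replicate 2, and 0.57 in replicate 3. The second was at 0.10, -0.06, 0.07 and 0.63 on the same arrays. Replicate 3 was the highest for each probe, while replicate 1 was below 0 for the first and above 0 for the second. Their means were 0.10 ± 0.59 (95% confidence interval -0.47 to 0.67, limma adjusted p = 0.731) and 0.25 ± 0.34 (-0.16 to 0.65, adjusted p = 0.239). On array 1 the first probe lay below the second, at a difference of -0.67, and on the other arrays the probes differed by -0.06 to 0.31. Without replicate 1 the first probe was called higher, at 0.43 (adjusted p = 0.0456), and without replicate 3 its mean was -0.13 (adjusted p = 0.673).

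LHCB4.3 encodes a CP29 form that is best known from leaves kept in strong light. Its log2 ratio was -0.37 in replicate 1, -0.23 and -0.34 in replicate 2 (Cy3 and Cy5) and -0.07 in replicate 3. Every array was below 0, yet the mean of -0.24 ± 0.15 was not called (95% confidence interval -0.56 to 0.07, limma adjusted p = 0.15). That interval reaches from 1.47-fold lower to 1.05-fold higher.

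The LHCB4 genes encode forms of the same protein, and their ratios were therefore set against each other within each replicate, with the probes of LHCB4.1 averaged. LHCB4.1 exceeded LHCB4.2 by 0.51, 0.72 and 1.22 in replicates 1, 2 and 3, a mean difference of 0.82 ± 0.37 in log2 ratio. It exceeded LHCB4.3 by 0.14, 0.44 and 0.67 (0.42 ± 0.27), and LHCB4.3 exceeded LHCB4.2 by 0.37, 0.28 and 0.55 (0.40 ± 0.14). With these averages the order LHCB4.1, LHCB4.3, LHCB4.2 was the same in 3 of 3 replicates. In replicate 1 it rests on the average, since the first LHCB4.1 probe alone (-0.56) lay below LHCB4.3 (-0.37). An exact two-sided sign-flip permutation test gave p = 0.25 for each pair, also after adjustment over the 3 pairs, which is the smallest p that 3 replicates allow. These are differences between ratios to the reference and say nothing of which gene has more transcript.

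LHB1B2 had the lowest mean of the 7 probes and a wide spread. Its log2 ratio was -0.27 in replicate 1 and 0.06 on the Cy3 array of replicate 2, but -0.999 on the Cy5 array of replicate 2 and -1.34 in replicate 3. The 2 arrays with Cy5 endosperm were low and the 2 with Cy3 endosperm were near 0, without overlap. The first LHCB4.1 probe and PSBW also showed no overlap between dyes, at smaller gaps. With 2 arrays against 2 such a separation often arises by chance, and its share over all probes was not counted. The mean over replicates was -0.69 ± 0.57 (SD, n = 3), or 1.61-fold lower, with a 95% confidence interval from 1.10-fold to 2.38-fold (limma adjusted p = 0.0417). Of all probes, 92.0% had a smaller SD. The mean was -0.10 where only arrays with Cy3 endosperm were used (adjusted p = 0.664) and -1.17 where only those with Cy5 endosperm were used. The call was lost in 6 of 12 alternative analyses, among them those that left out replicate 2 (mean -0.80, adjusted p = 0.0696) or replicate 3 (mean -0.37, adjusted p = 0.145). LHB1B2 is the direct neighbour of LHB1B1, a near-identical gene of the same antenna protein that has no named probe here. How far the LHB1B2 probe takes up transcripts of LHB1B1 and other LHCB1 genes was not tested.

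**Figure D2:**
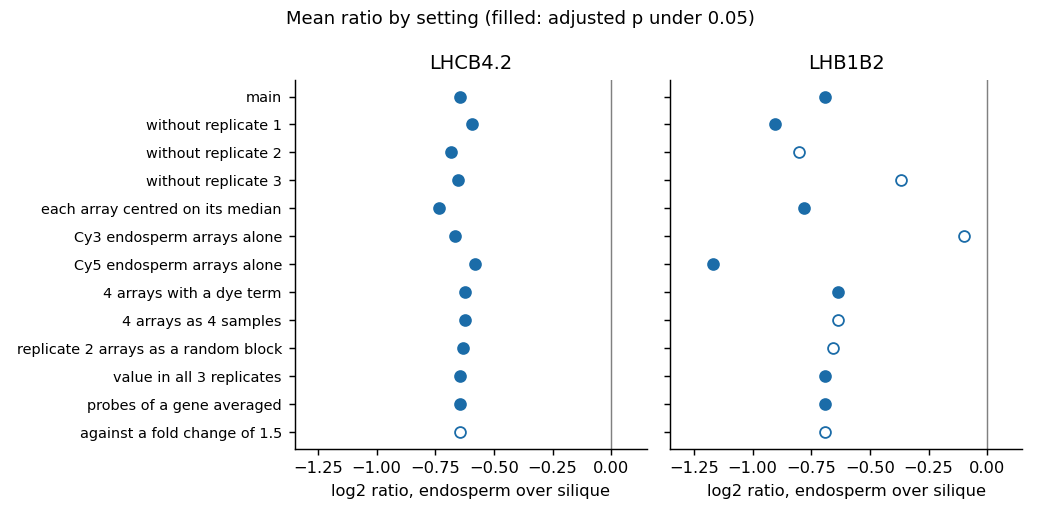
Mean log2 ratio of endosperm over silique reference (horizontal axis) for LHCB4.2 (left) and LHB1B2 (right) in the fit reported in the text, marked main, and in 12 alternatives (vertical axis). Filled points passed an adjusted p of 0.05. LHCB4.2 stays between -0.74 and -0.58, while LHB1B2 ranges from -1.17 with Cy5 endosperm to -0.10 with Cy3 endosperm.

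The small subunits were near the reference. PSBW, a subunit with a single membrane span that stabilises the association of the antenna with the core, was at -0.23 in replicate 1, -0.42 and -0.04 in replicate 2 (Cy3 and Cy5) and 0.06 in replicate 3. The Cy5 arrays lay near 0 and the Cy3 arrays below it. Its mean was -0.13 ± 0.17 (95% confidence interval -0.45 to 0.19, limma adjusted p = 0.412). PSBY, whose product is cut into separate small membrane proteins at the edge of the core, was at -0.34 in replicate 1, -0.21 and 0.70 in replicate 2 (Cy3 and Cy5) and -0.34 in replicate 3. The Cy5 array of replicate 2 was high, and the other 3 arrays lay close together. Its mean was -0.14 ± 0.34 (95% confidence interval -0.54 to 0.26, limma adjusted p = 0.477). For these subunits changes larger than 1.46-fold lower or 1.19-fold higher lay outside these intervals, which hold for this fit only. Over the 12 alternative analyses the mean of PSBY ranged from -0.34 to 0.18 and that of PSBW from -0.33 to 0.01.

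**Figure D3:**
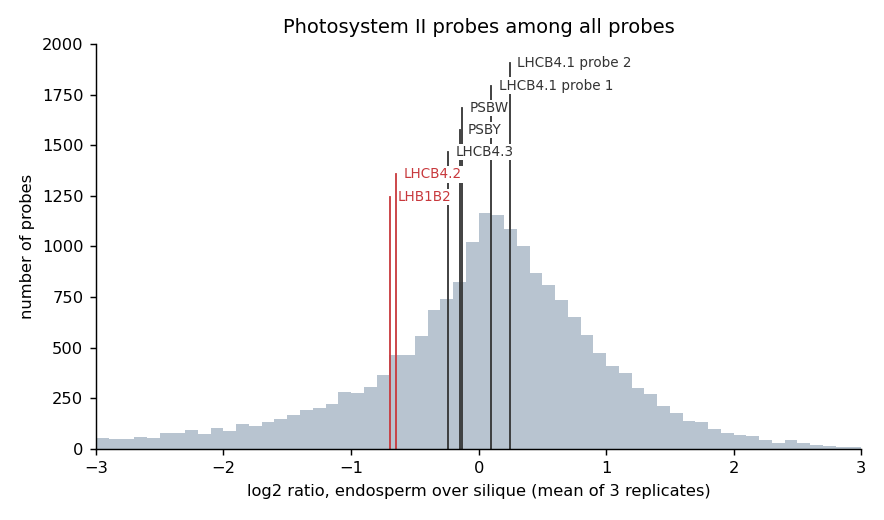
Number of probes (vertical axis) by mean log2 ratio of endosperm over silique reference over 3 replicates (horizontal axis, cropped at the sides). Lines mark the 7 photosystem II probes, in red those called lower. The lines span -0.69 to 0.25, within the bulk of all probes, and the lowest has 18.9% of probes below it.

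Endosperm of replicate 2 was hybridised with each dye on separate slides, so its 2 arrays differ in dye, slide and hybridisation together. For LHB1B2 the Cy5 array was the lower one, with a difference of -1.06, and 97.5% of all probes had a smaller difference in size. For PSBY the Cy5 array was higher by 0.91, and 96.2% of probes had a smaller difference. PSBW moved by 0.38, and the remaining 4 probes moved by -0.10 to 0.18, against a median size of 0.19 over all probes. LHCB4.2 moved least, by 0.05. For PSBY the Cy5 array of replicate 3 (-0.34) was close to the Cy3 arrays, whereas for LHB1B2 each Cy5 array was low.

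In a fit of all 4 arrays with a dye term, LHB1B2 was lower with Cy5 endosperm, at a difference of -1.07 (95% confidence interval -1.63 to -0.51). It did not pass after adjustment over all probes (limma unadjusted p = 0.00374, adjusted p = 0.267), and the other 6 probes had adjusted p of 0.569 or more. In that fit no probe passed (0 of 19449, or 0%), while before adjustment 1828 probes (9.40%) had p under 0.05. When replicate 2 entered as a random block, 14 probes passed in limma, none of them a member (LHB1B2 adjusted p = 0.148). The fit with a dye term and no block takes the 4 arrays as independent although 2 share their endosperm sample. In it the mean ratio of LHB1B2 was -0.64 and called (limma adjusted p = 0.0038). The call was lost with replicate 2 as a random block and no dye term (adjusted p = 0.0771). Replicates 1 and 3 each carried a single dye, so dye and sample cannot be told apart outside replicate 2, nor dye and slide within it.

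**Figure D4:**
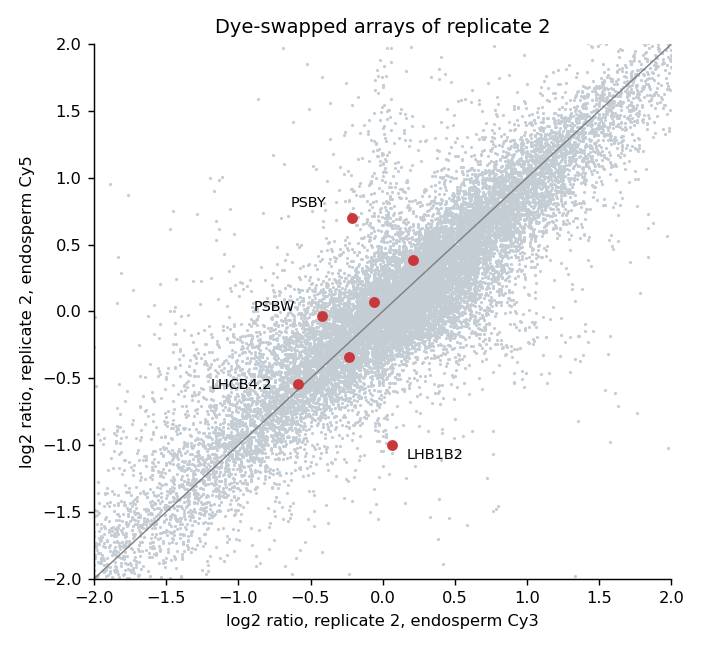
Log2 ratio of endosperm over silique reference on the 2 arrays of replicate 2, with endosperm in Cy3 (horizontal axis) and in Cy5 (vertical axis). Grey points are all compared probes with both axes cropped, red points are the 7 photosystem II probes, and the line marks equal values. LHB1B2 lies below the line (a difference of -1.06) and PSBY above it (0.91), while LHCB4.2 lies close to it (0.05).

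The lists of other photosynthesis genes put these ratios in their setting. Of 118 listed genes 24 had a named probe and 22 were measured, and probes without a name may cover others of the 118. Of the 23 measured probes 7 were higher, 4 lower and 12 not called, with a median log2 ratio of 0.25. Among all probes 32.0% were higher and 25.5% lower, with a median of 0.11. For the antenna of photosystem II the measured genes were 4 of 15, all of them described above, and for its subunits 2 of 12. PSB27, which acts in photosystem II assembly and repair and was the 1 measured gene of 18 on its list, was at 0.32 ± 0.17 and not called. Neither of the 2 measured photosystem I genes was called, PSAN at 0.27 ± 0.13 and PSAE-1 at -0.21 ± 0.15. Of 3 measured genes of electron transport and ATP synthase, PETM (AT2G26500), a small subunit of the cytochrome b6f complex, was lower at -0.46 ± 0.06. ATPC2, for a gamma subunit of the chloroplast ATP synthase, was higher at 0.54 ± 0.21, and 1 gene was not called. PETM was not called when replicate 2 (-0.43, limma adjusted p = 0.128) or replicate 3 (-0.49, adjusted p = 0.0582) was left out, nor ATPC2 when replicate 3 was (0.48, adjusted p = 0.0758) or with Cy5 endosperm alone (0.36, adjusted p = 0.158).

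Chlorophyll synthesis supplies the pigment bound by the antenna, and 7 of its 24 listed genes were measured. Of these 5 were higher, 0 lower and 2 not called, with a median log2 ratio of 1.17, beside 32.0% higher and 25.5% lower among all probes. PORB, which reduces protochlorophyllide in the light, was at 2.49 ± 0.11, and HEME2 and HEME1, which encode uroporphyrinogen decarboxylases, were at 1.60 ± 0.28 and 1.38 ± 0.20. That enzyme also serves the synthesis of heme, so the list is not limited to steps of chlorophyll alone. CHLI2, a subunit of magnesium chelatase, was at 1.17 ± 0.30. In the Calvin cycle RCA was lower (-1.34 ± 0.66) and PRK higher (0.55 ± 0.31) among 3 measured genes, though PRK was not called when replicate 2 (0.54, limma adjusted p = 0.111) or replicate 3 (0.40, adjusted p = 0.129) was left out. PRK was not called with Cy3 endosperm alone either (0.42, limma adjusted p = 0.0921), nor after median centring of the arrays (0.46, adjusted p = 0.0552). No test set these lists against the antenna genes. With the 6 members left out, 7 of 16 photosynthesis probes were higher and 2 lower, against the same 32.0% and 25.5%.

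**Figure D5:**
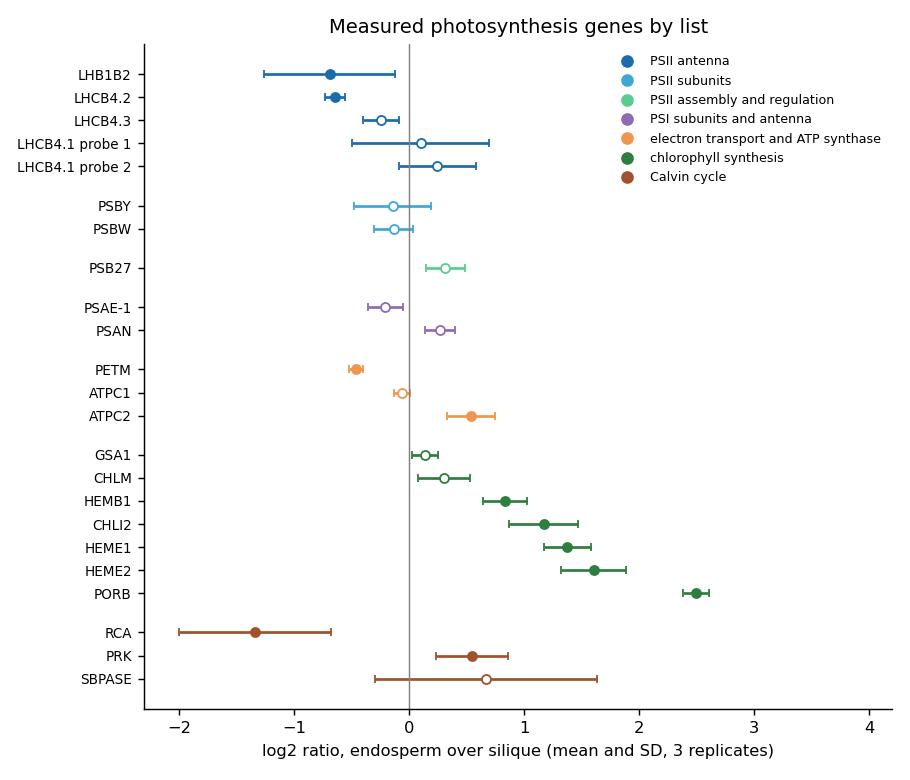
Mean log2 ratio of endosperm over silique reference with the SD over 3 replicates (horizontal axis) for each measured photosynthesis probe (vertical axis), coloured by list. Filled points were called and open points were not. The antenna and subunits of photosystem II lie between -0.69 and 0.25, and the 5 called genes of chlorophyll synthesis lie between 0.83 and 2.49.

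Likeness to each probe was measured as the root mean square difference of the log2 ratios over the 4 arrays. Among named probes of other genes the nearest to LHCB4.2 was AT2G23880 (0.03) and the nearest to LHCB4.3 was AT3G12350 (0.04). AT5G12110 and AT4G16450 were nearest to the first and second probes of LHCB4.1 (0.05 each), and AT5G58980 to PSBW (0.04). The patterns of PSBY and LHB1B2 had looser matches, in AT4G27620 (0.12) and AT1G74990 (0.17). Within the photosynthesis lists the nearest were PETM for LHCB4.2 (0.18), ATPC1 for LHCB4.3 (0.20), LHCB4.3 for PSBW (0.20), PSAE-1 for PSBY (0.42) and LHCB4.2 for LHB1B2 (0.59). For LHCB4.1 they were PSAN (0.37) and PSB27 (0.20). With so many candidates and 4 arrays, of which 2 share their RNA, near matches by value are common.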

How the data were processed

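Per the labels' protocols, RNA of both sides was amplified by in vitro transcription before the Cy dyes were coupled to it. The authors' deposited table holds 1 log ratio per probe and array, taken here as log2. No source used here says how intensities were made into ratios. Spot intensities were not at hand, so no filter on brightness was applied here. Probes lacking a value on any array were left out, and why those values are missing was not examined. The number of arrays limits the precision.

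Probes were named through the platform's gene table (14539 of 26912 probes) and the RefSeq table of assembly TAIR10.1. The arrays of replicate 2 were averaged, and the mean of 3 replicates was tested against 0 over all 19449 probes with limma 3.58.1 in R 4.3.3 (lmFit, eBayes, two-sided, Benjamini-Hochberg). The script was checked on simulated data. The fit has 2 residual degrees of freedom per probe and leaves out the spread of the single reference RNA. Errors are SDs over replicates.

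Members and gene lists were chosen with earlier results of these data known. Named from each list were up to 4 called genes with the smallest p, or, if none was called, the 2 whose ratios were farthest from 0, and for each member the nearest probes by value. The lists were the antenna, subunits, and assembly and regulation of photosystem II, photosystem I, electron transport and ATP synthase, chlorophyll synthesis, Calvin cycle, GLK regulators (0 of 2 measured), and markers of endosperm, seed coat, embryo, and the wall and vessels of the silique. Alternatives were each replicate left out, median centring, each dye alone, a dye term, the arrays of replicate 2 kept apart or as a random block, a looser filter on missing values, probes averaged by gene, and a fold change of 1.5.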

Additional observations from a re-analysis of the deposited data

Results flagged for a closer look

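For 23 photosynthesis probes the highest or lowest of the 4 arrays was compared with the others, and 2 stood apart by Dixon's criterion, which chance meets in about 5% of sets. The 4 arrays hold only 3 endosperm samples, so they are not independent. PSBY was at 0.70 on the Cy5 array of replicate 2, against -0.34 to -0.21 on the other 3 arrays, including the Cy3 array of the same RNA. HEME1 was at 1.61 in replicate 3, against 1.25 to 1.28 on the others.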

How the results depend on the processing

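Of 84 values (7 probes under 12 alternatives), 71 kept their direction and their side of the threshold, 7 lost the call, 2 gained one and 4 changed sign, none of which was called. With 1 replicate left out, 1 to 2 probes were called lower and 0 to 1 higher, the mean of the first LHCB4.1 probe ran from -0.13 to 0.43 and that of LHB1B2 from -0.90 to -0.37, and 2 to 4 photosynthesis probes were lower and 5 to 8 higher. LHB1B2 was not called on the Cy3 arrays alone (-0.10), with the 4 arrays as 4 samples (-0.64, adjusted p = 0.0523) or with a random block (-0.66, adjusted p = 0.0771), which left 1 probe called lower each time. The first LHCB4.1 probe was at -0.18 on the Cy3 arrays and at 0.48 on the Cy5 arrays, where it was the 1 probe called higher (adjusted p = 0.0324), and PSBW and PSBY turned to 0.014 and 0.18 on the Cy5 arrays. Against a fold change of 1.5 neither LHCB4.2 (-0.64) nor LHB1B2 (-0.69) passed, so 0 members were called lower, and 0 photosynthesis probes were lower and 4 higher. Apart from the stricter null of that last alternative, the cause of these changes was not tested. The differences between LHCB4 genes, taken in the order given above, were above 0 in every replicate and on each array of replicate 2. Leaving out a replicate or a dye therefore could not change their sign. No paired analysis was possible because there is 1 group, measured against a common reference. Signal over background was not known, so dim probes could not be told from bright ones.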

Other observations

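Of 12 genes directly beside the members in the RefSeq annotation 4 had a measured probe, and all 4 means were below 0. The members next to them were below 0 too, as were 5 of the 6 members. Of all probes 36.4% had a mean below that of PSBW (-0.13) and 49.3% below that of the first LHCB4.1 probe (0.10). The share of all probes below 0 therefore lies between these. The ratios of neighbours and members were not tested against each other. PSBY (-0.14 ± 0.34) lies next to AT1G67750, which was far below the reference at -4.46 ± 1.36 (limma adjusted p = 0.000698). PSBW (-0.13 ± 0.17) lies next to AT2G30560, at -1.54 ± 0.33 (limma adjusted p = 0.000674), and LHCB4.3 next to AT2G40110, at -1.14 ± 0.81 (limma adjusted p = 0.0201). AT3G08930, beside LHCB4.2, was at -0.29 ± 0.36 and not called. These neighbours were looked up after the members' values were seen.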
